A study of Mus musculus with 15 samples.

Results

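Quadriceps muscle of mice that had run on wheels (Ex) was compared with quadriceps of sedentary mice (control) by RNA-seq, gene by gene. Of 12529 genes listed, 11663 had a mean of at least 0.5 FPKM (fragments scaled to transcript length and to library size) over the 10 libraries of both groups, and these genes are described here. Both groups were wild type C57BL/6 mice (C57BL/6J in the study's methods), with 5 libraries each, and they differed by label only in treatment, exercise or sedentary. Per the study's methods the mice were young adult males, wheel access was free and voluntary over several weeks, and muscle was taken within hours of the last bout. Another group of 5 libraries, transgenic for *Ppargc1a*, was not compared here. The sources used here do not state that each library came from a separate animal, so p-values here reflect the spread among libraries, which may be technical in part.

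Skeletal muscle fibers range between fast glycolytic fibers, which contract quickly on sugar, and slow or oxidative fibers, which resist fatigue on fat and oxygen. The quadriceps of the mouse consists mostly of fast fibers. Endurance training is known to move fibers from the fastest myosin isoform toward more oxidative ones and to change the proteins of the Z-disc and M-band, the structures that anchor the thin and thick filaments and sense mechanical load. It also acts through calcium, since each contraction is started by calcium release from the sarcoplasmic reticulum and ended by pumping it back.

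Read numbers in the listed genes lay between 14098168 and 16876751 in Ex libraries and between 15686582 and 16917490 in control libraries. The 10 most abundant genes held 28.5% to 30.4% of the summed FPKM in Ex libraries and 32.3% to 33.6% in control libraries. On the first principal component, with 35.8% of the variance, all Ex libraries lay on one side (-15.6 to -3.58) and all controls on the other (7.22 to 12.6). Ex 5 lay nearest to the controls, and control 5 stood apart from the other controls on the second component (-14.9, against 0.32 to 11.9). Muscle fiber markers, 12 of 12 detected, summed to between 95428 and 109550.0 FPKM in Ex and between 111090.0 and 126950.0 FPKM in controls. Many of these markers are fast-fiber genes, among them *Myh4*, *Actn3* and *Pvalb*, so their sum does not measure fiber content. Of the 12, 6 were lower and 1, *Myh1*, was higher in Ex by the test given below. Since whole muscle was sequenced, fewer cells of a type and less RNA per cell cannot be told apart.

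Wheel running was accompanied by many small changes and a smaller number of large increases. Of the 11663 genes, 1216 (10.4%) differed at an adjusted p under 0.05, of which 630 (5.4%) were higher and 586 (5.02%) lower in Ex. These shares over all genes are the measure for the counts of list members given below. All adjusted p-values for genes are Benjamini-Hochberg values over the 11663 genes from limma, fitted on log2(FPKM + 1). Fold changes are Ex over control on that scale, where the change of weakly expressed genes appears smaller than it is, and their errors are standard errors. The large changes were nearly all increases, as 37 genes were at least 2-fold higher and 2 were at least 2-fold lower. The genes that fell were the more abundant ones, with a median level of 22.3 FPKM over the 10 libraries, against 7.27 FPKM for the genes that rose and 6.21 FPKM for all genes. Under TPM, in which all libraries sum to the same value, 1221 were higher and 208 lower. In 1123 genes (9.63%) the libraries did not overlap between groups, with 574 (4.92%) higher and 549 (4.71%) lower in Ex. The median log2 fold change over all genes was -0.0058 as deposited and 0.069 after TPM. All 630 higher genes stayed higher after TPM, whereas 207 of the 586 lower genes stayed lower. Of the called genes 21 higher and 3 lower ones reached the minimum of 0.5 FPKM through 1 group alone. The number of calls was 768, 766 and 759 without Ex 3, control 3 and control 4.

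Several of the large increases were in genes for proteins of the Z-disc, the M-band and the filaments. *Csrp3* encodes muscle LIM protein, a Z-disc protein that takes part in sensing stretch. It measured 447, 212, 137, 379 and 125 FPKM in Ex replicates 1 to 5, against 30.4, 25, 38.7, 41.1 and 51.2 FPKM in controls 1 to 5 (log2 fold change 2.62 ± 0.33, adjusted p = 7.04e-04). Ex 1 and Ex 4 were highest, and the lowest Ex library was above the highest control. *Fhl1*, a LIM protein that binds titin and myosin-binding protein C, measured 1129, 722, 740.2, 999.9 and 638 FPKM in Ex replicates 1 to 5, against 219, 204, 213, 249.7 and 259 FPKM in controls 1 to 5 (log2 fold change 1.85 ± 0.14, adjusted p = 2.62e-05), again with Ex 1 and Ex 4 at the top and no overlap between groups. *Myom3*, a myomesin-family crosslinker of thick filaments in the M-band, measured 75.5, 51.0, 53.1, 88.0 and 41.8 FPKM in Ex replicates 1 to 5, against 12.2, 10.4, 9.75, 12.9 and 9.97 FPKM in controls 1 to 5 (log2 fold change 2.34 ± 0.17, adjusted p = 2.01e-05). In this gene too Ex 4 and Ex 1 were the highest libraries.

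Of 17 tested LIM, ankyrin-repeat and load-sensing genes, 9 were higher in Ex and 1 was lower, with a median log2 fold change of 0.46. *Ankrd1*, encoding the ankyrin repeat protein CARP that shuttles between the titin filament and the nucleus, measured 10.4, 14.7, 28.4, 17.2 and 8.55 FPKM in Ex replicates 1 to 5, against 5.53, 4.04, 7.34, 3.99 and 6.05 FPKM in controls 1 to 5 (log2 fold change 1.31 ± 0.26, adjusted p = 0.00871). Ex 3 was highest, and Ex 5 was closest to the controls without overlapping them. *Ablim1*, an actin-binding LIM protein, measured 21.4, 19.0, 22.98, 27.8 and 17.7 FPKM in Ex replicates 1 to 5, against 8.96, 9.52, 7.21, 7.35 and 9.39 FPKM in controls 1 to 5 (log2 fold change 1.25 ± 0.11, adjusted p = 7.04e-05), with no overlap. *Fhl2*, a further LIM protein of the sarcomere, was weakly expressed and averaged 1.75 ± 0.412 FPKM in Ex and 0.739 ± 0.166 FPKM in controls (0.65 ± 0.10). The related ankyrin repeat gene *Ankrd2*, chosen after its values were seen, averaged 209.8 ± 73.1 FPKM in Ex and 92.2 ± 47.3 FPKM in controls (log2 fold change 1.25 ± 0.31, adjusted p = 0.0253). Its groups overlapped, since control 5 at 169 FPKM exceeded Ex 3 and Ex 5, and the call of *Ankrd2* was lost without Ex 1, Ex 4 or control 1 (adjusted p between 0.0578 and 0.0610). *Ankrd23*, also of this titin-binding family, went the other way, with 1214, 1299, 1053, 1241 and 1262 FPKM in Ex replicates 1 to 5, against 1709.7, 1588, 1701, 1478 and 1604 FPKM in controls 1 to 5 (log2 fold change -0.41 ± 0.07, adjusted p = 0.00282). Without Ex 5 a second member, *Mss51*, chosen after its values were seen, was also called lower.

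**Figure D1:**
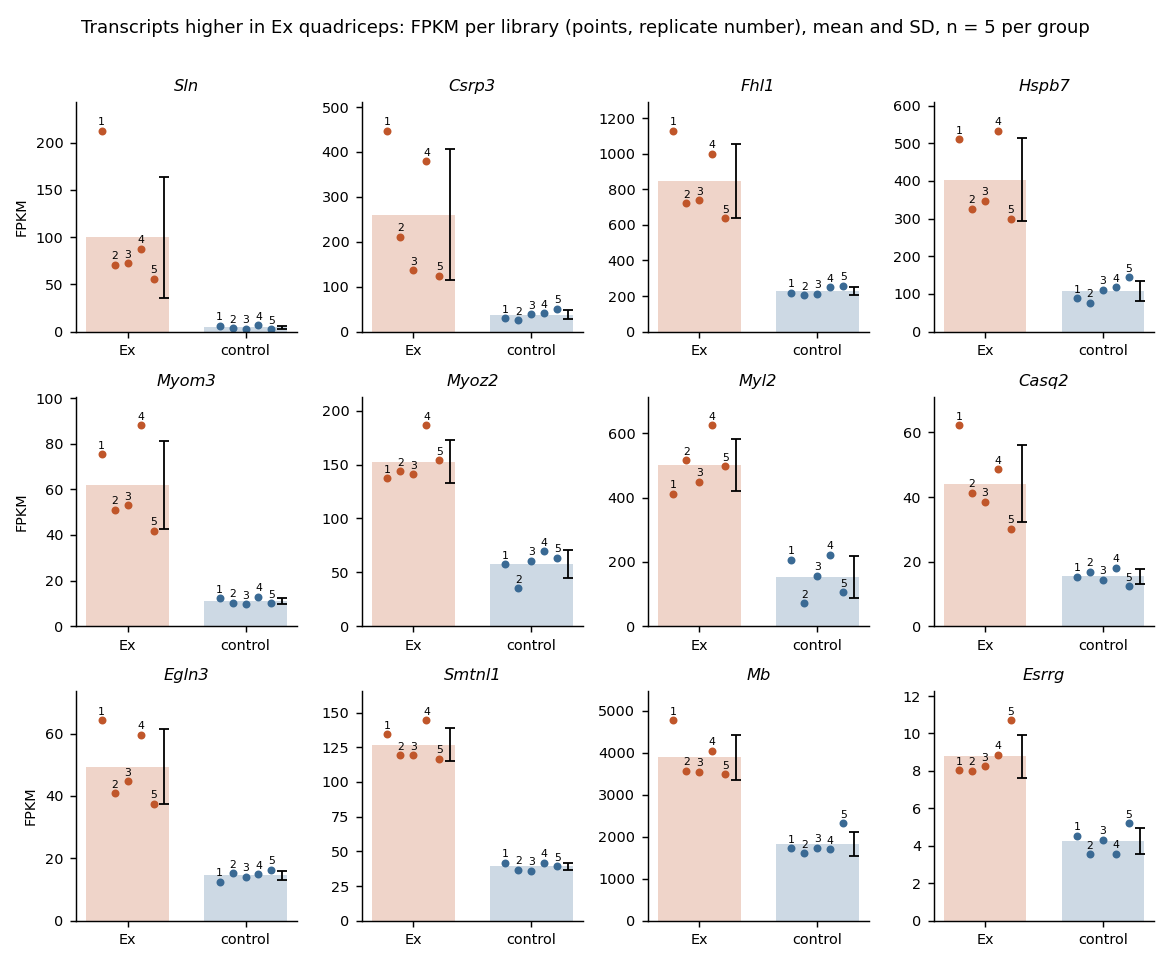
FPKM (vertical axes, linear) of 12 transcripts higher in Ex, with Ex at the left and control at the right of each panel; points are libraries marked by replicate number, bars are means and error bars SDs over 5 libraries. In all 12 panels the Ex libraries lie above every control library, and in *Sln*, *Csrp3*, *Fhl1* and *Hspb7* Ex 1 and Ex 4 are the highest.

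Z-disc genes as a list moved less uniformly. Of 23 tested, 8 were higher and 2 lower (median 0.10). *Actn2*, the alpha-actinin isoform present in all fiber types, measured 542, 509, 505, 603 and 479 FPKM in Ex replicates 1 to 5, against 267, 219, 288, 263 and 331 FPKM in controls 1 to 5 (log2 fold change 0.95 ± 0.10, adjusted p = 1.49e-04), while the fast-fiber isoform *Actn3* was lower, with 2864 ± 211 FPKM in Ex and 3552 ± 242 FPKM in controls (log2 fold change -0.31 ± 0.07, adjusted p = 0.0161; adjusted p = 0.0523 after TPM). *Myoz2*, or calsarcin-1, which tethers the phosphatase calcineurin to the Z-disc of slow fibers, measured 137, 144, 141, 186 and 154 FPKM in Ex replicates 1 to 5, against 57.5, 35.3, 61.0, 69.4 and 63.6 FPKM in controls 1 to 5 (log2 fold change 1.42 ± 0.15, adjusted p = 2.63e-04). Control 2 was the lowest library and the groups did not overlap. Its fast-fiber relative *Myoz1* was lower, with 1721 ± 136 FPKM in Ex and 2129 ± 127 FPKM in controls (log2 fold change -0.31 ± 0.07, adjusted p = 0.0134). *Pdlim1*, a PDZ and LIM adaptor on alpha-actinin, rose (log2 fold change 0.91 ± 0.12, adjusted p = 8.05e-04). Among 14 M-band and titin-linked genes, 2 were higher and 3 lower (1 without Ex 1, Ex 2, Ex 3, Ex 4, control 3 or control 4, and 4 higher and 3 lower after TPM). The ubiquitin ligase *Trim63* (MuRF1), which sits on titin at the M-band and marks filament proteins for degradation, was lower, with 145, 109, 116, 112 and 142 FPKM in Ex replicates 1 to 5, against 159.8, 174, 198, 175 and 174 FPKM in controls 1 to 5 (log2 fold change -0.50 ± 0.09, adjusted p = 0.00488). The lowest control, at 159.8 FPKM, was above the highest Ex library.

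The sequence before the transcription start is given for 4 of these load-sensing genes because they rose together and their factors are often named by promoter motif. Windows are the 250 bases before the start, 5′ to 3′ on the gene's strand, from RefSeq (GRCm38.p6), and capitals mark matches to the motifs searched. The start is the first that the table gives, which for *Fhl1* is an alternative start inside the gene as listed and for *Myoz2* lies slightly inside it. These were the MEF2 and CArG motifs, the ERR motif AAGGTCA, the AP-1 motif TGANTCA and the TEAD motif CATTCC, each on both strands.
*Csrp3* (chr7:48848052-48848301, minus strand): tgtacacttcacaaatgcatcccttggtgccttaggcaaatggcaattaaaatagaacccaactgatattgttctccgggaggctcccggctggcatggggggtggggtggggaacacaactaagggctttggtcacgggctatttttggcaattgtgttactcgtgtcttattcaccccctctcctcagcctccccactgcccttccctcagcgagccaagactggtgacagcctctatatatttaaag
*Fhl1* (chrX:56779433-56779682, plus strand): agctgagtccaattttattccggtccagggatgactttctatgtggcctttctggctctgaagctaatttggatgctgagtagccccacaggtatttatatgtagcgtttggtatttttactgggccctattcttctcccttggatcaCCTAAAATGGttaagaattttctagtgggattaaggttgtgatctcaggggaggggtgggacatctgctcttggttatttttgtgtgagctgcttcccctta
*Myoz2* (chr3:123034988-123035237, minus strand): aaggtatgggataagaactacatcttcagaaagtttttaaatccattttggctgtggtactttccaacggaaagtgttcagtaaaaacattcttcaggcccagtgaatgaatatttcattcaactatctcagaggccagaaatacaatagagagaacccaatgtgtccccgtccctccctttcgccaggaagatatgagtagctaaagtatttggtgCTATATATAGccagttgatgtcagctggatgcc
*Ankrd1* (chr19:36119845-36120094, minus strand): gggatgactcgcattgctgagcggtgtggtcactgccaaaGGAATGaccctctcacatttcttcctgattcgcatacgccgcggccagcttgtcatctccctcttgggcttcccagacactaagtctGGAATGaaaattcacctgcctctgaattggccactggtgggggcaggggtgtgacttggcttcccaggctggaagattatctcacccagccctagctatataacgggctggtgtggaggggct
The *Fhl1* window held a CArG match 102 bases before the start, that of *Myoz2* a MEF2 match 33 bases before it whose letters also contain those of a TATA box, and that of *Ankrd1* TEAD matches 123 and 210 bases before it. The *Csrp3* window held none of these letters. Of 8908 tested genes with a promoter in the RefSeq table, 1.46% had a CArG, 0.651% a MEF2, 3.48% an ERR, 5.32% an AP-1 and 12.7% a TEAD match. Of the 82 matched genes that were over 1.5-fold higher in Ex, 3.66% had a CArG, 4.88% a MEF2, 1.22% an ERR, 13.4% an AP-1 and 14.6% a TEAD match. These shares rest on 3 CArG and 4 MEF2 genes. Over all 476 matched genes called higher they were 1.89% for CArG, 1.26% for MEF2 and 6.72% for AP-1, against 2.25%, 1.58% and 4.95% in the 444 matched genes called lower. All are descriptions without a test.

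*Sln*, encoding sarcolipin, a small peptide that uncouples the calcium pump of the sarcoplasmic reticulum, had the largest fold change of all genes. It measured 212, 70.9, 72.7, 87.8 and 55.8 FPKM in Ex replicates 1 to 5, against 6.22, 3.70, 3.15, 6.70 and 2.72 FPKM in controls 1 to 5 (log2 fold change 4.09 ± 0.32, adjusted p = 2.62e-05). Ex 1 stood far above the next library, Ex 4, and even Ex 5, the lowest Ex library, was well above the highest control. The other small regulators of the pump were not higher. *Pln*, encoding phospholamban, averaged 1.01 ± 0.121 FPKM in Ex and 1.14 ± 0.232 FPKM in controls (log2 fold change -0.08 ± 0.08, adjusted p = 0.541). *Mrln*, encoding myoregulin, the main such peptide of fast muscle, measured 105, 92.4, 83.3, 68.9 and 105 FPKM in Ex replicates 1 to 5, against 113, 121, 109.9, 116 and 130.5 FPKM in controls 1 to 5 (log2 fold change -0.39 ± 0.10, adjusted p = 0.0344; adjusted p = 0.0710 after TPM), and the call of *Mrln* was lost without Ex 2, Ex 3, control 1, control 2, control 3, control 4 or control 5 (adjusted p between 0.0538 and 0.0833).

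Within the list of sarcoplasmic reticulum calcium handling, 3 of 27 tested genes were higher and 7 lower (median -0.08), and after TPM 4 were higher and 2 lower. The genes that rose were *Sln* and the slow-type isoforms of the pump and of the calcium store. *Atp2a2*, the slow-fiber and cardiac pump SERCA2, measured 51.0, 73.0, 64.7, 80.6 and 72.4 FPKM in Ex replicates 1 to 5, against 40.3, 19.8, 38.7, 38.0 and 27.7 FPKM in controls 1 to 5 (log2 fold change 1.06 ± 0.18, adjusted p = 0.00407). *Casq2*, the cardiac and slow-fiber calsequestrin that binds calcium in the store, measured 62.2, 41.3, 38.5, 48.7 and 30.2 FPKM in Ex replicates 1 to 5, against 15.4, 16.8, 14.4, 18.2 and 12.3 FPKM in controls 1 to 5 (log2 fold change 1.43 ± 0.16, adjusted p = 2.86e-04). Neither overlapped. *Pvalb*, encoding the soluble calcium buffer parvalbumin of fast fibers, measured 8507, 10603, 10364, 8513 and 10340.0 FPKM in Ex replicates 1 to 5, against 13251, 11249, 12499, 13820.0 and 13339 FPKM in controls 1 to 5 (log2 fold change -0.41 ± 0.09, adjusted p = 0.0136), and *Cacng1*, the gamma subunit of the voltage sensor, was lower (log2 fold change -0.42 ± 0.08, adjusted p = 0.00621). The number of lower members was 2 to 4 without Ex 1, Ex 3, Ex 4, control 1, control 2, control 3 or control 4.

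Calcium-dependent signaling genes were mostly lower where they were called. Of 25 genes of calcineurin, calmodulin kinase and NFAT signaling, 2 were higher and 8 lower (median -0.11), and after TPM 3 were higher and 4 lower. *Ppp3cb*, a catalytic subunit of calcineurin, the phosphatase that activates NFAT, measured 59.0, 57.6, 65.0, 65.1 and 76.0 FPKM in Ex replicates 1 to 5, against 88.8, 82.6, 92.3, 88.4 and 89.4 FPKM in controls 1 to 5 (log2 fold change -0.45 ± 0.07, adjusted p = 0.00212). *Camk2a*, a catalytic isoform of calmodulin kinase II, measured 91.4, 106, 96.4, 93.8 and 98.6 FPKM in Ex replicates 1 to 5, against 132, 127, 124, 130.1 and 125 FPKM in controls 1 to 5 (log2 fold change -0.39 ± 0.05, adjusted p = 5.35e-04). *Calm3*, one of 3 genes for calmodulin, measured 132, 146, 143, 140.3 and 158 FPKM in Ex replicates 1 to 5, against 209, 207, 181, 196 and 178 FPKM in controls 1 to 5 (log2 fold change -0.43 ± 0.06, adjusted p = 0.00141). In all of these every Ex library lay below every control library, and the calls stood after TPM. The members that rose were *Myoz2*, described above, and the cardiac isoform *Camk2d* (log2 fold change 0.34 ± 0.08, adjusted p = 0.0202), whose control 1 was above its lowest Ex library. Moreover, the call of *Camk2d* was lost without Ex 3 (adjusted p = 0.0524). The number of lower members was 4 to 5 without Ex 1, Ex 2, Ex 3, control 1 or control 3, and 1 was higher without Ex 3.

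Myosin heavy chains, the motors whose isoforms define the fiber types, shifted away from the fastest one. *Myh4*, the IIb isoform, measured 6792, 8069, 7238, 6854 and 7306 FPKM in Ex replicates 1 to 5, against 10550.0, 9404, 10127, 9871 and 8991 FPKM in controls 1 to 5 (log2 fold change -0.43 ± 0.07, adjusted p = 0.00305). The intermediate IIx isoform *Myh1* measured 1374, 1358, 1447, 1559.7 and 1028 FPKM in Ex replicates 1 to 5, against 658, 739, 706, 625 and 839.6 FPKM in controls 1 to 5 (log2 fold change 0.92 ± 0.11, adjusted p = 4.45e-04), with Ex 5 the lowest Ex library and control 5 the highest control. The IIa isoform *Myh2*, of fast oxidative fibers, measured 1298, 984, 1029, 1171 and 896 FPKM in Ex replicates 1 to 5, against 334, 267, 283, 333 and 251 FPKM in controls 1 to 5 (log2 fold change 1.87 ± 0.11, adjusted p = 3.83e-06). None of these overlapped between groups. The slow isoform *Myh7*, chosen after its values were seen, measured 55.0, 104, 67.9, 88.7 and 78.4 FPKM in Ex replicates 1 to 5, against 49.2, 15.5, 43.2, 47.1 and 23.7 FPKM in controls 1 to 5 (log2 fold change 1.21 ± 0.29, adjusted p = 0.0213), with Ex 1 closest to the controls, and the call of *Myh7* was lost without Ex 2 or Ex 4 (adjusted p between 0.0506 and 0.0542). Of 8 developmental and extraocular myosins, which mark growing, repairing or specialized fibers, 2 were higher at low levels, the embryonic *Myh3*, which reached the minimum of 0.5 FPKM through Ex alone (0.975 ± 0.426 FPKM in Ex and 0.398 ± 0.0913 FPKM in controls, log2 fold change 0.48 ± 0.12, adjusted p = 0.0237), and the nonmuscle *Myh10* (5.59 ± 1.62 FPKM in Ex and 3.63 ± 0.510 FPKM in controls, log2 fold change 0.49 ± 0.13, adjusted p = 0.0374). This count was 0 to 1 without Ex 1, Ex 2, control 1, control 2, control 3 or control 4, and 1 member was lower without control 2.

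Slow or cardiac-type isoforms were set against their fast counterparts in 12 pairs of genes for the same sarcomeric or metabolic function. *Actn2*, in the alpha-actinin pair, is present in all fiber types and so is not a slow isoform. The value given is the share of the slow or cardiac-type gene, or of *Actn2*, in the summed FPKM of the pair. This share was higher in Ex in all 12 pairs, and in none did the Ex and control libraries overlap (exact two-sided permutation test, p = 0.00794 each, the smallest that 5 against 5 libraries can give, and adjusted p = 0.00794 over 12 pairs). The slow shares remained small for the thin filament. *Tnni1*, the slow troponin I, made up 0.613, 0.920, 0.589, 0.844 and 0.673% in Ex replicates 1 to 5, against 0.327, 0.108, 0.285, 0.317 and 0.174% in controls 1 to 5. *Tnnt1*, the slow troponin T, made up 0.822% ± 0.168 in Ex and 0.265% ± 0.104 in controls (SD, n = 5 each), *Tnnc1* 0.805% ± 0.212 in Ex and 0.385% ± 0.125 in controls, and *Tpm3*, a slow tropomyosin, 0.832% ± 0.190 in Ex and 0.432% ± 0.111 in controls. In all of these Ex 1 or Ex 3 was the lowest Ex library and control 2 the lowest control.

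Larger shares were found in the thick filament and the Z-disc. *Mybpc1*, named slow myosin-binding protein C, made up 37.1, 31.8, 33.3, 37.1 and 30.8% in Ex replicates 1 to 5, against 17.8, 19.2, 18.3, 18.0 and 19.7% in controls 1 to 5 of the sum with *Mybpc2*. Here control 1 was the lowest control, whereas control 2 was the lowest in the thin filament shares. *Actn2* made up 16.0, 14.1, 14.97, 19.2 and 13.9% in Ex replicates 1 to 5, against 6.84, 5.74, 7.22, 6.63 and 9.58% in controls 1 to 5 of the sum with *Actn3*. As *Actn2* is present in all fiber types, this is not the share of a slow isoform. *Myl2*, the slow regulatory myosin light chain, made up 3.91% ± 0.619 in Ex and 1.05% ± 0.378 in controls of the sum with *Mylpf*, and *Myl3*, the slow essential light chain, 3.13% ± 0.515 in Ex and 2.16% ± 0.356 in controls of the sum with *Myl1*. *Myl2* itself rose (log2 fold change 1.81 ± 0.26, adjusted p = 0.00161), while *Mylpf* averaged 12335 ± 1304 FPKM in Ex and 14191 ± 1224 FPKM in controls (log2 fold change -0.20 ± 0.09, adjusted p = 0.173). For *Myl3* and *Myl1* neither gene alone passed (log2 fold change 0.42 ± 0.18, adjusted p = 0.160, and log2 fold change -0.13 ± 0.11, adjusted p = 0.519).

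**Figure D2:**
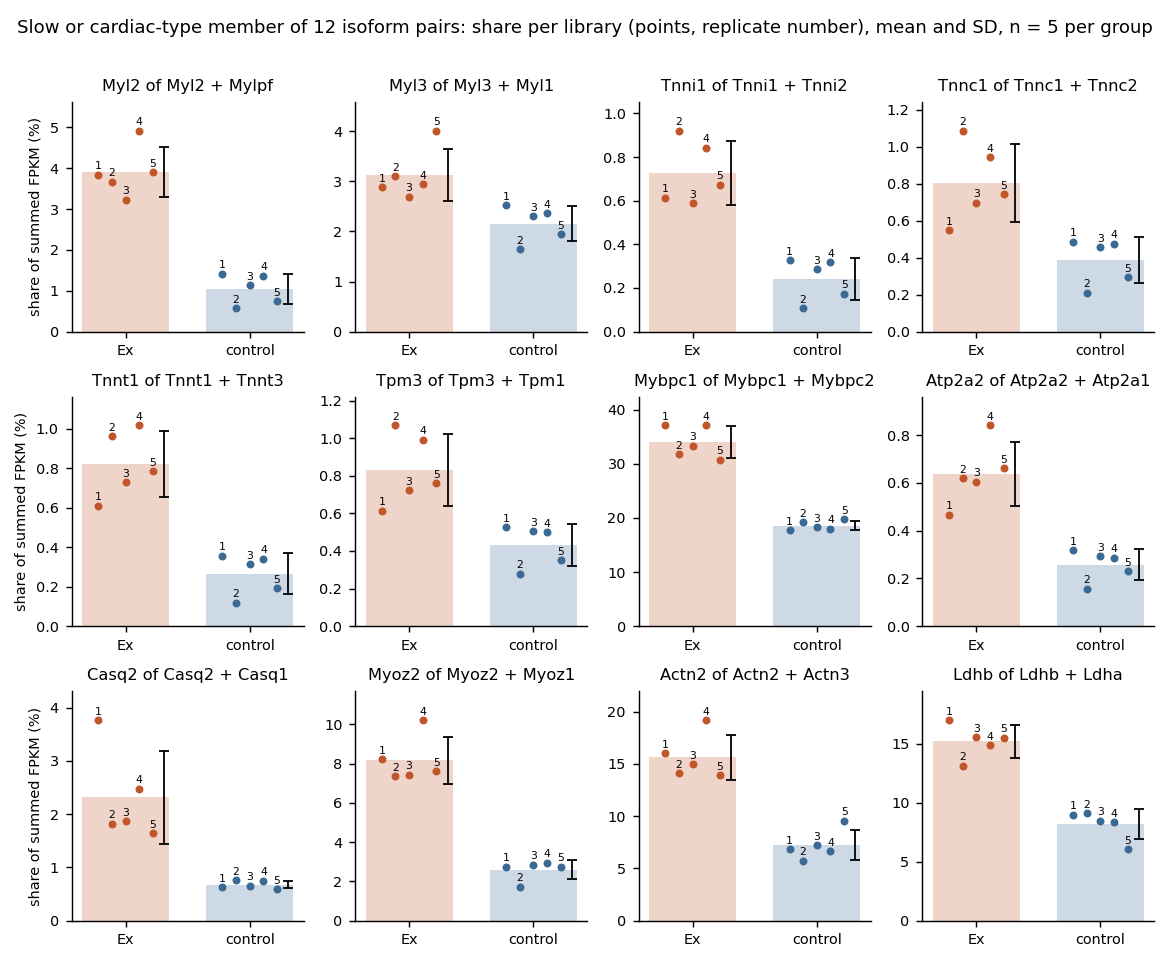
Share of the slow or cardiac-type gene, or of *Actn2*, which is present in all fiber types, in the summed FPKM of 12 isoform pairs. Vertical axes are in percent from 0, with Ex at the left and control at the right. Points are libraries marked by replicate number, bars are means and error bars SDs over 5 libraries. The groups do not overlap in any pair, and control 2 is the lowest control in most of the filament pairs.

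The pumps, stores and enzymes moved in the same direction. *Atp2a2* made up 0.638% ± 0.135 in Ex and 0.257% ± 0.0646 in controls of the summed SERCA transcripts, *Casq2* 2.32% ± 0.871 in Ex and 0.680% ± 0.0738 in controls of calsequestrin and *Myoz2* 8.17% ± 1.19 in Ex and 2.61% ± 0.494 in controls of the calsarcin pair. *Ldhb*, the heart-type lactate dehydrogenase that favors oxidation of lactate to pyruvate, made up 17.0, 13.1, 15.5, 14.9 and 15.5% in Ex replicates 1 to 5, against 8.98, 9.13, 8.46, 8.38 and 6.06% in controls 1 to 5 of the sum with *Ldha*. Control 5 was lowest, apart from the other controls. *Ldhb* itself rose (log2 fold change 0.78 ± 0.06, adjusted p = 2.62e-05), while *Ldha* averaged 1236 ± 109.8 FPKM in Ex and 1454 ± 151 FPKM in controls (log2 fold change -0.23 ± 0.08, adjusted p = 0.0879). The lactate exporter of glycolytic fibers *Slc16a3* (MCT4) was lower, with 72.8, 97.5, 86.1, 83.9 and 98.6 FPKM in Ex replicates 1 to 5, against 117, 115, 115, 148 and 176 FPKM in controls 1 to 5 (log2 fold change -0.59 ± 0.12, adjusted p = 0.0109), and all Ex libraries lay under all controls.

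The libraries of each group were not alike in these genes. Over the 13 slow and cardiac-type filament genes, Ex 1 was the lowest Ex library in 8, Ex 5 in 4 and Ex 3 in 1, and control 2 was the lowest control in 11. Ex 1 was lowest in *Myl2*, *Myh7* and *Tnni1*, while Ex 5 was lowest in *Myh2*, *Mybpc1* and *Myl6b*. Among *Sln*, *Csrp3*, *Myom3*, *Hspb7*, *Fhl1* and *Egln3*, which were chosen after their values were seen, Ex 5 was the lowest Ex library in all 6, and Ex 1 or Ex 4 the highest. *Tpm3* measured 25.6, 51.7, 35.5, 43.0 and 39.7 FPKM in Ex replicates 1 to 5, against 34.0, 15.8, 31.8, 33.0 and 21.2 FPKM in controls 1 to 5 (log2 fold change 0.53 ± 0.22, adjusted p = 0.145), so that Ex 1 lay within the range of the controls. *Pdk4*, the kinase that shuts off pyruvate oxidation in fasting, measured 115, 317, 341, 384 and 281 FPKM in Ex replicates 1 to 5, against 187, 112, 179.5, 126 and 189.8 FPKM in controls 1 to 5 (log2 fold change 0.78 ± 0.29, adjusted p = 0.107). Ex 1 overlapped the controls and the other 4 Ex libraries were above all of them. *Ucp3*, an uncoupling protein of muscle that rises with fatty acid supply, had the same pattern, with 34.0, 92.5, 107, 106 and 75.7 FPKM in Ex replicates 1 to 5, against 53.0, 49.3, 65.1, 53.4 and 87.7 FPKM in controls 1 to 5 (log2 fold change 0.35 ± 0.28, adjusted p = 0.455). Over the 111 genes higher by more than 1.5-fold, Ex 5 was the lowest Ex library in 55, Ex 4 the highest in 44 and Ex 1 the highest in 38.

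**Figure D3:**
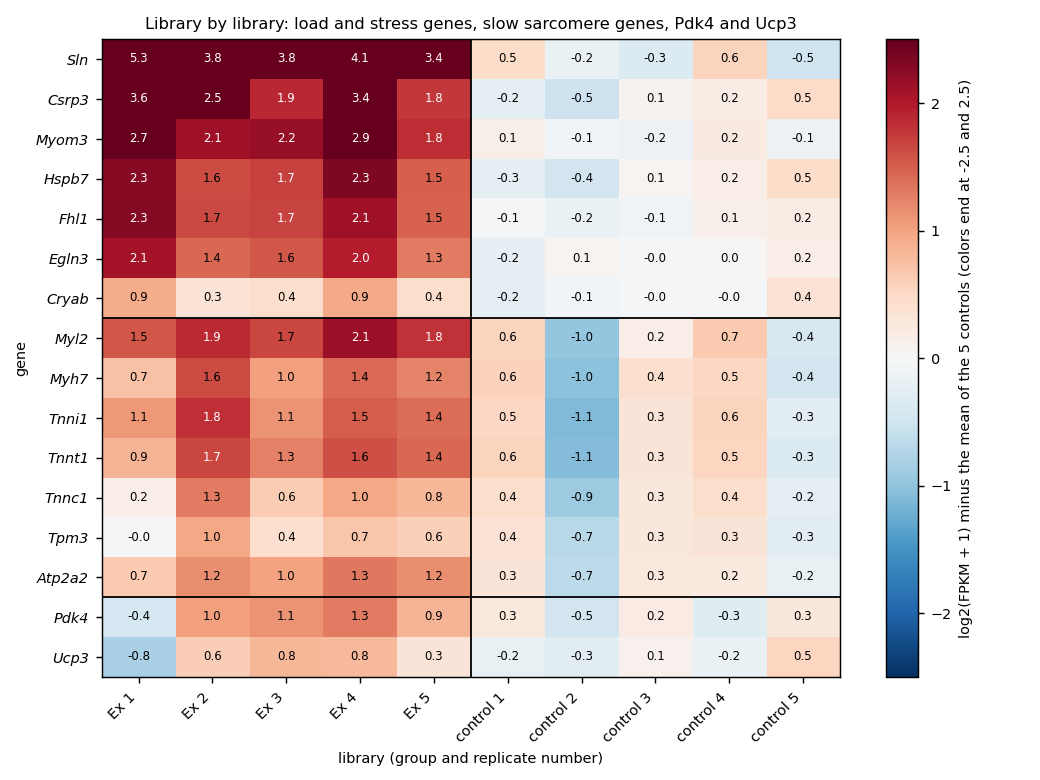
Difference of each library from the mean of the 5 controls in log2(FPKM + 1) (color and printed values) for 16 genes chosen after their values were seen (rows) in 10 libraries (columns, Ex at the left, control at the right). Rows group load and stress genes, slow sarcomere genes, and *Pdk4* with *Ucp3*; Ex 1 is among the highest in the first block and the lowest Ex library in most of the others, and control 2 is low in the slow sarcomere genes.

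Small heat shock proteins, chaperones that bind to unfolding filament proteins, were called higher in several members. Of 8 small members with their co-chaperone, 4 were higher and none lower (median 0.39). *Hspb7*, a chaperone of heart and skeletal muscle, measured 511, 326, 347, 533 and 299 FPKM in Ex replicates 1 to 5, against 87.9, 76.6, 111, 118 and 145 FPKM in controls 1 to 5 (log2 fold change 1.89 ± 0.19, adjusted p = 1.54e-04), with no overlap. *Cryab*, alpha B-crystallin, averaged 837 ± 175 FPKM in Ex and 542 ± 88.3 FPKM in controls (log2 fold change 0.62 ± 0.14, adjusted p = 0.0161) and *Hspb6* 959 ± 104 FPKM in Ex and 646 ± 81.4 FPKM in controls (log2 fold change 0.57 ± 0.09, adjusted p = 0.00282). *Cryab* groups overlapped, as control 5 stood at 693 FPKM and Ex 2 at 678 FPKM. Of 18 large heat shock proteins and co-chaperones none was higher and 2 were lower, among them *Dnajb5* (log2 fold change -0.43 ± 0.09, adjusted p = 0.00927), and after TPM 2 were higher and 1 lower. The lower count was 1 without Ex 2, Ex 3 or control 4, and 2 were higher without control 5. Whether the small and the large chaperones differed as groups was not tested.

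The sodium pump, which restores the membrane potential of working fibers, changed by subunit. The beta isoform *Atp1b1* measured 103, 89.5, 89.2, 89.5 and 94.8 FPKM in Ex replicates 1 to 5, against 63.9, 59.8, 72.2, 65.2 and 68.7 FPKM in controls 1 to 5 (log2 fold change 0.49 ± 0.06, adjusted p = 4.84e-04), and it was higher in every Ex library than in any control. *Atp1b4*, a muscle beta subunit that resides in the inner nuclear membrane in placental mammals, averaged 5.15 ± 1.40 FPKM in Ex and 1.96 ± 0.401 FPKM in controls (log2 fold change 1.04 ± 0.14, adjusted p = 9.42e-04). In contrast *Atp1b2*, known from rat as the beta isoform of fast glycolytic fibers, averaged 120.3 ± 5.30 FPKM in Ex and 145 ± 7.72 FPKM in controls (log2 fold change -0.27 ± 0.05, adjusted p = 0.00650; adjusted p = 0.0650 after TPM). Of 24 genes for ion channels and pumps, 6 were higher and 2 lower, and 6 and 0 after TPM. The potassium channel *Kcnma1* (log2 fold change 0.35 ± 0.07, adjusted p = 0.0111) was among the higher ones. The lower members numbered 1 without Ex 3, Ex 4, control 3 or control 4.

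At the neuromuscular junction 4 of 19 genes were higher and 1 lower (median 0.16), and 7 and 0 after TPM. *Lrp4*, the agrin receptor that starts clustering of acetylcholine receptors, measured 2.96, 2.58, 2.92, 2.59 and 2.35 FPKM in Ex replicates 1 to 5, against 1.74, 1.87, 1.78, 1.84 and 1.91 FPKM in controls 1 to 5 (log2 fold change 0.38 ± 0.06, adjusted p = 0.00267). *Chrnb1*, a subunit of the adult receptor, measured 23.3, 21.5, 21.6, 28.8 and 19.1 FPKM in Ex replicates 1 to 5, against 16.5, 16.0, 15.1, 17.7 and 16.7 FPKM in controls 1 to 5 (log2 fold change 0.44 ± 0.09, adjusted p = 0.00927), and *Ncam1*, an adhesion molecule that also marks denervated and regenerating fibers, averaged 1.70 ± 0.359 FPKM in Ex and 0.928 ± 0.104 FPKM in controls (log2 fold change 0.48 ± 0.09, adjusted p = 0.00663). In none of these did the groups overlap. The lower member, *Rapsn*, the receptor scaffold, had log2 fold change -0.20 ± 0.06, adjusted p = 0.0378 and adjusted p = 0.175 after TPM, and the call of *Rapsn* was lost without Ex 1, Ex 3, Ex 4, control 1, control 3, control 4 or control 5 (adjusted p between 0.0537 and 0.0924). In the dystrophin and integrin complexes 3 of 25 genes were higher (1 without Ex 1, Ex 2, Ex 3 or control 4) and 2 lower (1 without Ex 2, Ex 3, Ex 4, control 1, control 3 or control 4). *Itgb1bp2* (melusin, a stretch sensor that binds beta 1 integrin) had the smallest p of them (log2 fold change 0.37 ± 0.07, adjusted p = 0.00560).

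Myoglobin was higher and the iron exporter lower. *Mb*, myoglobin, which stores oxygen in oxidative fibers, measured 4780.3, 3571, 3551, 4044 and 3492 FPKM in Ex replicates 1 to 5, against 1728, 1605, 1739, 1706 and 2324 FPKM in controls 1 to 5 (log2 fold change 1.10 ± 0.11, adjusted p = 1.49e-04). *Slc40a1*, ferroportin, the exporter of cellular iron, measured 8.02, 6.86, 7.46, 6.94 and 9.32 FPKM in Ex replicates 1 to 5, against 15.1, 15.2, 13.9, 12.5 and 14.04 FPKM in controls 1 to 5 (log2 fold change -0.80 ± 0.08, adjusted p = 1.41e-04). Neither overlapped. The iron importer *Tfrc* averaged 64.3 ± 11.6 FPKM in Ex and 45.3 ± 6.19 FPKM in controls (log2 fold change 0.49 ± 0.13, adjusted p = 0.0303), and the call of *Tfrc* was lost without Ex 1, Ex 2, Ex 4, control 3 or control 4 (adjusted p between 0.0607 and 0.0711). *Egln3*, a prolyl hydroxylase that uses oxygen and iron to mark HIF for degradation, measured 64.4, 40.9, 44.7, 59.7 and 37.5 FPKM in Ex replicates 1 to 5, against 12.5, 15.2, 14.1, 14.8 and 16.4 FPKM in controls 1 to 5 (log2 fold change 1.67 ± 0.14, adjusted p = 2.65e-05). It was the HIF target with the largest change. Of 22 HIF factors and targets 3 were higher and none lower (1 lower without control 5), the others being *Pdk1* (log2 fold change 0.50 ± 0.05, adjusted p = 8.57e-05) and the factor *Epas1*, or HIF-2 alpha (log2 fold change 0.23 ± 0.05, adjusted p = 0.0191). The called share of this list was 13.6%, against 10.4% of all genes. *Vegfa*, a classical HIF target, averaged 71.0 ± 5.82 FPKM in Ex and 72.2 ± 11.2 FPKM in controls (log2 fold change -0.01 ± 0.10, adjusted p = 0.953).

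Every call among fat-handling genes was higher in Ex. Of 22 lipid droplet and lipolysis genes 7 were higher, and of 18 PPAR targets 8 were higher, with none lower in either list (medians 0.13 and 0.24). *Plin5*, the perilipin that links droplets to mitochondria, measured 23.3, 18.1, 23.8, 16.0 and 22.6 FPKM in Ex replicates 1 to 5, against 14.2, 10.7, 11.3, 9.85 and 15.8 FPKM in controls 1 to 5 (log2 fold change 0.71 ± 0.14, adjusted p = 0.00753). The last step of triglyceride synthesis, *Dgat2*, averaged 41.9 ± 6.47 FPKM in Ex and 24.2 ± 2.76 FPKM in controls (log2 fold change 0.76 ± 0.10, adjusted p = 0.00118), and *Pnpla2*, the lipase that opens triglyceride breakdown, 123 ± 7.20 FPKM in Ex and 103 ± 7.97 FPKM in controls (log2 fold change 0.26 ± 0.06, adjusted p = 0.0188). Synthesis and breakdown genes were thus both higher. *Fabp3*, the fatty acid carrier of oxidative muscle, measured 669, 603, 566, 553 and 577 FPKM in Ex replicates 1 to 5, against 321, 228, 273, 247 and 301 FPKM in controls 1 to 5 (log2 fold change 1.12 ± 0.09, adjusted p = 2.62e-05), and *Ucp2* averaged 17.3 ± 2.18 FPKM in Ex and 10.1 ± 1.89 FPKM in controls (log2 fold change 0.73 ± 0.12, adjusted p = 0.00361). The ketone enzyme *Bdh1* rose (log2 fold change 1.41 ± 0.16, adjusted p = 2.89e-04), with control 5 at 22.7 FPKM above the other controls, which ranged up to 13.4 FPKM.

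Mitochondrial genes outside the respiratory chain were called singly. Among 37 SLC25 carriers 4 were higher and 2 lower (16.2% called, against 10.4% of all genes), and 9 and 0 after TPM. The lower count was 1 without Ex 2, Ex 4, control 3 or control 4. *Slc25a34* measured 12.5, 13.4, 17.8, 10.6 and 17.7 FPKM in Ex replicates 1 to 5, against 7.58, 5.37, 7.30, 4.07 and 6.07 FPKM in controls 1 to 5 (log2 fold change 1.12 ± 0.16, adjusted p = 0.00161), and *Slc25a13*, an aspartate and glutamate carrier of the malate shuttle, averaged 0.822 ± 0.0657 FPKM in Ex and 0.288 ± 0.0867 FPKM in controls (log2 fold change 0.50 ± 0.06, adjusted p = 5.57e-04), reaching the minimum of 0.5 FPKM through the Ex group alone. *Nnt*, the transhydrogenase that makes mitochondrial NADPH, measured 15.3, 14.2, 14.5, 12.8 and 14.5 FPKM in Ex replicates 1 to 5, against 9.10, 9.55, 7.82, 8.61 and 5.98 FPKM in controls 1 to 5 (log2 fold change 0.74 ± 0.10, adjusted p = 9.42e-04), with no overlap, and the desuccinylase *Sirt5* rose as well (log2 fold change 0.46 ± 0.07, adjusted p = 0.00265). C57BL/6J mice are known to carry a deletion of internal *Nnt* exons, which values per gene do not resolve. Limma called none of 17 genes for mitochondrial DNA maintenance (4 had an unadjusted p under 0.05, limma voom on recovered reads called 0, 3 higher after TPM, and 2 higher without Ex 5). Of 26 genes for fusion, fission and quality control it called 1, *Bnip3l*, lower, against 8 higher and 0 lower after TPM, and the call of *Bnip3l* was lost without Ex 3 or control 3 (adjusted p between 0.0530 and 0.0546). In that list 1 to 2 were higher without Ex 4, control 1 or control 5 and 2 lower without Ex 5. *Esrrg*, encoding an estrogen-related receptor that drives oxidative genes, measured 8.03, 8.02, 8.25, 8.87 and 10.7 FPKM in Ex replicates 1 to 5, against 4.53, 3.55, 4.33, 3.57 and 5.20 FPKM in controls 1 to 5 (log2 fold change 0.90 ± 0.10, adjusted p = 2.74e-04). Its coactivator gene *Ppargc1a* measured 6.39, 4.87, 6.07, 7.34 and 6.87 FPKM in Ex replicates 1 to 5, against 5.45, 6.46, 12.5, 8.01 and 5.06 FPKM in controls 1 to 5 (log2 fold change -0.16 ± 0.19, adjusted p = 0.622), with control 3 the highest library.

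Energy-sensing genes were called in 20% and sugar-handling genes in 7.14% of tested members, against 10.4% of all genes. Of 15 genes for AMP-activated protein kinase and its regulators 3 were lower and none higher (2 and none after TPM). *Prkab2*, the main beta subunit in muscle, which carries a glycogen-binding domain, measured 107, 109, 105, 99.4 and 110.3 FPKM in Ex replicates 1 to 5, against 151, 147, 155, 148 and 164 FPKM in controls 1 to 5 (log2 fold change -0.53 ± 0.05, adjusted p = 5.09e-05). The fast-fiber gamma subunit *Prkag3* averaged 67.7 ± 6.23 FPKM in Ex and 94.7 ± 15.7 FPKM in controls (log2 fold change -0.47 ± 0.11, adjusted p = 0.0182; adjusted p = 0.0552 after TPM). Of 28 genes for glucose uptake and insulin signaling 1 was higher, the insulin receptor adaptor *Grb14* (log2 fold change 0.55 ± 0.11, adjusted p = 0.00922), and 1 lower, the glucose transporter *Slc2a3* (log2 fold change -0.55 ± 0.09, adjusted p = 0.00381), with 2 lower without Ex 5, control 1 or control 5. The main glucose transporter of muscle, *Slc2a4* (GLUT4), averaged 239 ± 11.5 FPKM in Ex and 251 ± 21.6 FPKM in controls (log2 fold change -0.07 ± 0.06, adjusted p = 0.508), and *Hk2*, which traps glucose as its phosphate, 69.8 ± 5.84 FPKM in Ex and 72.6 ± 7.07 FPKM in controls (log2 fold change -0.05 ± 0.07, adjusted p = 0.694). *Tigar*, a fructose bisphosphatase that lowers glycolytic flux, measured 28.5, 31.9, 30.6, 28.5 and 45.4 FPKM in Ex replicates 1 to 5, against 56.3, 49.1, 53.5, 48.8 and 63.6 FPKM in controls 1 to 5 (log2 fold change -0.72 ± 0.12, adjusted p = 0.00354), with Ex 5 closest to the controls. It is counted in the mTORC1 list given below and not in that of glucose uptake and insulin signaling.

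Antioxidant genes split. Of 35 tested, 4 were higher and 4 lower, and 7 and 3 after TPM. *Gpx3*, the secreted glutathione peroxidase, measured 126, 92.1, 82.96, 95.5 and 127 FPKM in Ex replicates 1 to 5, against 214, 234, 223, 192 and 143 FPKM in controls 1 to 5 (log2 fold change -0.93 ± 0.15, adjusted p = 0.00265), and *Sepw1*, a small selenoprotein of muscle, averaged 1154 ± 101 FPKM in Ex and 1492 ± 89.3 FPKM in controls (log2 fold change -0.37 ± 0.07, adjusted p = 0.00598). Both contain selenocysteine. On the other side catalase (*Cat*), the peroxisomal enzyme that removes hydrogen peroxide, measured 76.8, 63.4, 64.3, 63.8 and 70.0 FPKM in Ex replicates 1 to 5, against 48.7, 47.3, 52.4, 45.5 and 58.9 FPKM in controls 1 to 5 (log2 fold change 0.42 ± 0.08, adjusted p = 0.00569), and *Prdx2*, a thiol peroxidase, averaged 148 ± 3.71 FPKM in Ex and 114 ± 13.2 FPKM in controls (log2 fold change 0.38 ± 0.07, adjusted p = 0.00672). The higher members numbered 2 without Ex 1, Ex 3, Ex 4 or control 4.

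**Figure D4:**
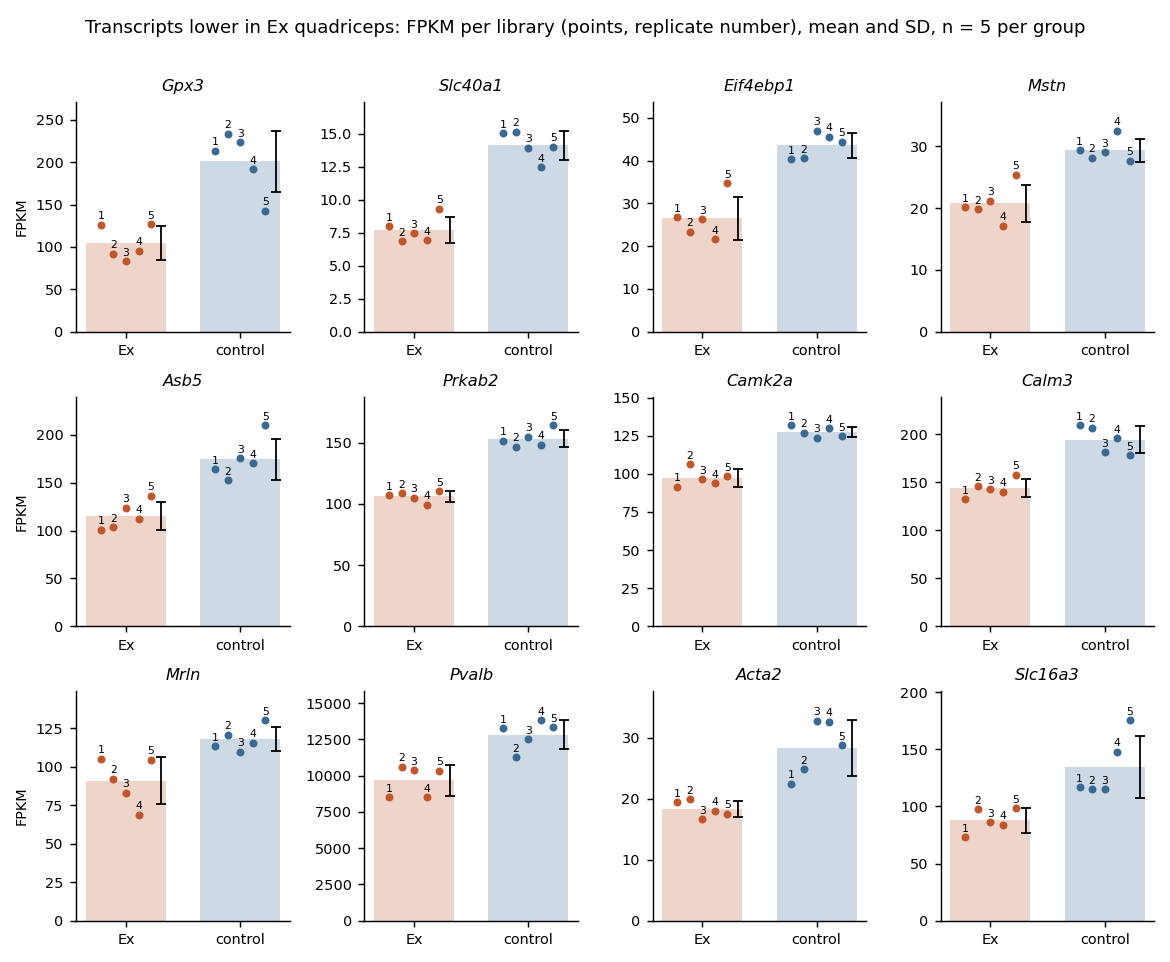
FPKM (vertical axes, linear, from 0) of 12 transcripts lower in Ex, with Ex at the left and control at the right of each panel; points are libraries marked by replicate number, bars are means and error bars SDs over 5 libraries. In all 12 panels the Ex libraries lie below every control library, and the differences are smaller than those of the leading increases.

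Some genes that restrain growth or mark proteins for degradation were lower. *Eif4ebp1*, the repressor of cap-dependent translation that mTORC1 inactivates, measured 26.8, 23.3, 26.3, 21.6 and 34.7 FPKM in Ex replicates 1 to 5, against 40.3, 40.6, 47.0, 45.6 and 44.4 FPKM in controls 1 to 5 (log2 fold change -0.71 ± 0.10, adjusted p = 0.00164). *Mstn*, myostatin, a secreted inhibitor of muscle growth, measured 20.2, 19.8, 21.2, 17.2 and 25.4 FPKM in Ex replicates 1 to 5, against 29.4, 28.2, 29.1, 32.5 and 27.7 FPKM in controls 1 to 5 (log2 fold change -0.49 ± 0.09, adjusted p = 0.00454). The highest Ex library of each, Ex 5, was below the lowest control. Of 26 FoxO factors, atrophy ligases and glucocorticoid targets 4 were lower and 1 higher (2 and 1 after TPM), *Trim63* and *Mstn* among the lower. Of 30 genes of mTORC1 and translational control, a list that also counts *Tigar*, 5 were lower (2 lower and 2 higher after TPM). Of 22 genes of the amino acid stress response 4 were lower (3 lower and 1 higher after TPM). The called shares were 19.2% in the FoxO, 16.7% in the mTORC1 and 18.2% in the stress response list, against 10.4% of all genes (5.02% lower). In the stress response list *Aldh1l2* (log2 fold change -0.47 ± 0.08, adjusted p = 0.00404) and *Nupr1* (log2 fold change -0.44 ± 0.09, adjusted p = 0.00947) fell. The mTORC1 count was 3 to 10 without Ex 1, Ex 2, Ex 3, Ex 4, Ex 5, control 3 or control 4, the stress response count 7 without Ex 5 and the FoxO count 2 without Ex 2, Ex 3, Ex 4, control 2 or control 4. Higher members numbered 2 in the FoxO list without Ex 5 and 1 in the mTORC1 list without control 5.

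Genes of the protein synthesis and degradation machinery itself were not called more often than all genes. The called share was 9.68% of ribosomal protein genes, 7.69% of proteasome subunits and 3.03% of autophagy genes, against 10.4% of all genes (5.02% lower). Of 62 cytosolic ribosomal protein genes 6 were lower and none higher as deposited (median -0.10), whereas after TPM none was lower and 3 were higher, so that their direction depended on the scaling. The lower count was 2 to 3 without Ex 1, Ex 3, Ex 4, control 1 or control 4. Of 39 proteasome subunits 2 were higher and 1 lower (6 and 0 after TPM), and of 33 autophagy genes 1 was lower (1 higher after TPM). The proteasome counts were 1 without Ex 1, Ex 2, Ex 4, Ex 5, control 2, control 3, control 4 or control 5 for the higher ones and 0 to 2 without Ex 1, Ex 2, Ex 3, Ex 4, Ex 5, control 1, control 3 or control 5 for the lower one, *Psme4*. The autophagy gene was *Atg12*, and the call of *Atg12* was lost without Ex 2, Ex 3, Ex 4, Ex 5, control 2, control 3, control 4 or control 5 (adjusted p between 0.0556 and 0.104). The activator of proteasome genes *Nfe2l1* averaged 207 ± 6.06 FPKM in Ex and 176 ± 4.93 FPKM in controls (log2 fold change 0.23 ± 0.04, adjusted p = 0.00423). Outside these lists, *Asb5*, a muscle gene of the ankyrin repeat and SOCS box family of ubiquitin ligase adaptors, measured 101, 103, 124, 113 and 136 FPKM in Ex replicates 1 to 5, against 164, 153, 175, 170.3 and 209.9 FPKM in controls 1 to 5 (log2 fold change -0.59 ± 0.10, adjusted p = 0.00305). *Smyd2*, a lysine methyltransferase that acts on the chaperone HSP90, measured 78.7, 81.1, 69.8, 84.4 and 93.7 FPKM in Ex replicates 1 to 5, against 111, 102, 133, 126 and 148 FPKM in controls 1 to 5 (log2 fold change -0.59 ± 0.10, adjusted p = 0.00361).

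Transcription factors that set muscle identity were lower where they changed. Of 27 myogenic, MEF2 and sine oculis homeobox regulators 4 were lower and none higher (3 and none after TPM). That is 14.8% called, against 10.4% of all genes (5.02% lower). *Eya1*, the coactivator of sine oculis homeobox proteins in fast fibers, measured 5.004, 5.82, 5.90, 5.14 and 6.48 FPKM in Ex replicates 1 to 5, against 8.20, 7.87, 8.42, 9.02 and 8.15 FPKM in controls 1 to 5 (log2 fold change -0.49 ± 0.07, adjusted p = 0.00117). *Six2* averaged 3.64 ± 0.413 FPKM in Ex and 4.94 ± 0.393 FPKM in controls (log2 fold change -0.36 ± 0.07, adjusted p = 0.00994), and *Myf6*, the myogenic factor most expressed in adult fibers, 49.7 ± 7.16 FPKM in Ex and 68.1 ± 6.66 FPKM in controls (log2 fold change -0.45 ± 0.09, adjusted p = 0.0115). *Myod1* (log2 fold change -0.39 ± 0.15, adjusted p = 0.119), *Myog* (log2 fold change 0.23 ± 0.13, adjusted p = 0.301) and the satellite cell factor *Pax7* (log2 fold change -0.03 ± 0.08, adjusted p = 0.817) did not pass. Among 20 nuclear receptors 4 were lower and none higher (2 and none after TPM), led by the retinoid receptors *Rxrg*, with 21.2, 24.3, 21.2, 21.9 and 21.2 FPKM in Ex replicates 1 to 5, against 30.8, 29.8, 27.0, 29.3 and 27.7 FPKM in controls 1 to 5 (log2 fold change -0.38 ± 0.05, adjusted p = 0.00130), and *Rxra* (log2 fold change -0.31 ± 0.05, adjusted p = 0.00191). The number of lower receptors was 2 without Ex 1, Ex 2, Ex 3 or control 3. *Nfkb2*, the precursor of the p52 subunit of NF-kappaB, was higher, with 7.21, 7.87, 8.85, 8.54 and 7.19 FPKM in Ex replicates 1 to 5, against 5.08, 4.45, 5.19, 4.47 and 4.79 FPKM in controls 1 to 5 (log2 fold change 0.62 ± 0.07, adjusted p = 2.63e-04).

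Genes that respond within hours to activity or follow the time of day were lower where they were called. The shares called were 8.70% and 9.09% of the tested members of these lists, all lower. Over all genes 10.4% were called in either direction and 5.02% were lower. At an unadjusted p under 0.05 from limma, 8 of 23 immediate early and 11 of 22 clock genes were lower and 0 higher. Over all 11663 genes 3110 passed that limit, in either direction. Of 23 immediate early genes 20 had a negative log2 fold change (median -0.24, and -0.17 after TPM), and limma called 2 lower as deposited and 0 after TPM. *Fos* measured 3.46, 4.76, 2.29, 1.17 and 5.63 FPKM in Ex replicates 1 to 5, against 8.32, 8.45, 3.34, 6.20 and 4.63 FPKM in controls 1 to 5 (log2 fold change -0.73 ± 0.30, adjusted p = 0.137), with overlap. Of 22 circadian clock genes 19 had a negative log2 fold change (median -0.32, and -0.22 after TPM) and 2 were called lower, 1 after TPM. *Nr1d1*, the repressor REV-ERB alpha, averaged 99.9 ± 14.1 FPKM in Ex and 90.3 ± 12.7 FPKM in controls (log2 fold change 0.14 ± 0.11, adjusted p = 0.425). The lower clock calls numbered 0 to 7 without Ex 1, Ex 2, Ex 3, Ex 4, Ex 5, control 3, control 4 or control 5, and the lower immediate early calls 0 to 1 without Ex 1, Ex 2, Ex 3, Ex 4, control 1, control 2 or control 3. The labels and the study's methods do not give the hour of each harvest, and its part in these values was not tested.

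Vascular and matrix genes were higher in part. Of 15 endothelial markers 5 were higher and none lower (median 0.24), and their summed level was 228 to 269 FPKM in Ex libraries and 174 to 211 FPKM in control libraries. *Esam*, an endothelial junction protein, measured 30.8, 30.4, 28.8, 25.4 and 27.1 FPKM in Ex replicates 1 to 5, against 20.9, 21.6, 21.99, 23.7 and 21.9 FPKM in controls 1 to 5 (log2 fold change 0.36 ± 0.06, adjusted p = 0.00356), and *Tie1*, an endothelial receptor kinase, averaged 18.7 ± 1.45 FPKM in Ex and 14.7 ± 0.908 FPKM in controls (log2 fold change 0.32 ± 0.06, adjusted p = 0.00696). The count of higher markers was 2 to 3 without Ex 1, Ex 2, Ex 3, Ex 4, control 3 or control 4. Of 28 angiogenic factors and receptors 6 were higher and none lower, *Angpt1*, a ligand of the TIE2 receptor, among them (log2 fold change 0.52 ± 0.10, adjusted p = 0.00719), and the count was 3 without Ex 1, Ex 3 or control 2. The part of endothelial RNA in these values was not tested. Of 12 smooth muscle and pericyte markers 2 were higher, 2 lower and 8 not called (median 0.0019). That is 33.3% called, against 10.4% of all genes, and 3 were lower without control 1. The lower ones were the contractile genes *Acta2* (19.5, 19.9, 16.6, 18.0 and 17.5 FPKM in Ex replicates 1 to 5, against 22.4, 24.8, 32.8, 32.6 and 28.8 FPKM in controls 1 to 5, log2 fold change -0.59 ± 0.10, adjusted p = 0.00381) and *Tagln* (log2 fold change -0.48 ± 0.08, adjusted p = 0.00316). The higher ones were the pericyte genes *Cspg4* (log2 fold change 0.35 ± 0.06, adjusted p = 0.00381) and *Pdgfrb* (log2 fold change 0.22 ± 0.06, adjusted p = 0.0358). The call of *Pdgfrb* was lost without Ex 1, Ex 2, Ex 3, control 1, control 2, control 3 or control 4 (adjusted p between 0.0510 and 0.0882).

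Of 45 collagens and matrix enzymes 6 were higher and 1, *Adamts1*, lower (15.6% called, against 10.4% of all genes). The call of *Adamts1* was lost without Ex 1, Ex 3, Ex 4, control 1, control 3 or control 5 (adjusted p between 0.0612 and 0.0884). Several of the higher genes follow. The basement membrane genes *Col4a1*, with 58.6, 71.7, 74.2, 77.1 and 51.5 FPKM in Ex replicates 1 to 5, against 48.2, 40.9, 46.6, 43.0 and 44.5 FPKM in controls 1 to 5 (log2 fold change 0.55 ± 0.10, adjusted p = 0.00577), *Col4a2* (log2 fold change 0.50 ± 0.08, adjusted p = 0.00320) and *Hspg2*, or perlecan (log2 fold change 0.30 ± 0.05, adjusted p = 0.00331), were among them. *Postn*, a matrix protein induced by load and injury, measured 11.3, 14.5, 14.1, 16.9 and 5.49 FPKM in Ex replicates 1 to 5, against 4.64, 4.31, 4.63, 4.92 and 4.04 FPKM in controls 1 to 5 (log2 fold change 1.21 ± 0.22, adjusted p = 0.00494), with Ex 5 well below the other Ex libraries. *Cilp*, a matrix protein of cartilage and connective tissue, measured 40.3, 43.0, 67.8, 73.3 and 31.8 FPKM in Ex replicates 1 to 5, against 16.7, 19.5, 20.6, 15.5 and 20.9 FPKM in controls 1 to 5 (log2 fold change 1.35 ± 0.20, adjusted p = 0.00170). None of 13 fibroblast markers, 10 tendon markers or 12 macrophage markers was called by limma as deposited, and after TPM 1, 0 and 0 were, with summed fibroblast levels of 892 to 1211 FPKM in Ex and 957 to 1256 FPKM in controls. The unadjusted p was under 0.05 for 1, 2 and 0 of these markers, and limma voom on recovered reads called 0 in each list. Higher calls numbered 2 for fibroblasts and 1 for macrophages without Ex 5, and 1 tendon marker was lower without control 1.

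Muscle-secreted factors changed one by one, with 2 of 27 higher and 3 lower (18.5% called, against 10.4% of all genes). The lower ones include *Nnat*, which the list holds although it encodes a protein of the endoplasmic reticulum. *Cx3cl1*, the chemokine fractalkine, measured 2.07, 3.17, 4.02, 3.97 and 1.79 FPKM in Ex replicates 1 to 5, against 0.988, 1.01, 0.833, 0.637 and 0.860 FPKM in controls 1 to 5 (log2 fold change 1.07 ± 0.16, adjusted p = 0.00166), and *Fndc5*, the precursor of irisin, averaged 51.1 ± 3.92 FPKM in Ex and 37.1 ± 1.37 FPKM in controls (log2 fold change 0.45 ± 0.06, adjusted p = 5.40e-04). *Nnat*, an imprinted gene for a small endoplasmic reticulum protein, had the largest decrease among tested genes, with 0.0912, 0.841, 0.606, 0.134 and 0.565 FPKM in Ex replicates 1 to 5, against 2.28, 2.18, 1.13, 3.53 and 4.73 FPKM in controls 1 to 5 (log2 fold change -1.33 ± 0.24, adjusted p = 0.00488). The groups did not overlap, but the gene reached the minimum of 0.5 FPKM through the controls alone. *Penk*, proenkephalin, averaged 3.47 ± 0.520 FPKM in Ex and 6.10 ± 1.27 FPKM in controls (log2 fold change -0.66 ± 0.12, adjusted p = 0.00646).

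Several of the most changed genes belonged to none of the lists. *Smtnl1*, a smoothelin-like muscle protein that is a target of protein kinase A, had the smallest p of all genes, with 134, 119, 119, 145 and 117 FPKM in Ex replicates 1 to 5, against 41.9, 36.8, 36.0, 41.9 and 39.3 FPKM in controls 1 to 5 (log2 fold change 1.67 ± 0.07, adjusted p = 1.45e-07). Its libraries were tight within each group and far apart between groups. *Ttc9* (log2 fold change 1.87 ± 0.12, adjusted p = 9.58e-06), the deubiquitinase gene *Uchl1* (log2 fold change 1.58 ± 0.14, adjusted p = 5.28e-05), *Ndrg4* (log2 fold change 1.53 ± 0.12, adjusted p = 2.62e-05) and the small GTPase *Rab15* (log2 fold change 1.43 ± 0.11, adjusted p = 2.62e-05) were higher in every Ex library than in any control. On the lower side were *Cpeb1*, which binds RNA and controls its polyadenylation, with 25.6, 22.3, 21.1, 21.0 and 25.4 FPKM in Ex replicates 1 to 5, against 41.5, 38.2, 40.6, 36.8 and 42.9 FPKM in controls 1 to 5 (log2 fold change -0.77 ± 0.07, adjusted p = 5.28e-05), the cAMP phosphodiesterase *Pde7a* (log2 fold change -0.80 ± 0.14, adjusted p = 0.00409), *Dusp8*, a phosphatase of stress-activated kinases (log2 fold change -0.62 ± 0.08, adjusted p = 6.87e-04), *Fam131a* (log2 fold change -0.64 ± 0.07, adjusted p = 3.22e-04) and *Tspan8* (log2 fold change -0.61 ± 0.07, adjusted p = 4.41e-04). The 20 largest increases and the 20 largest decreases without overlap were all called in each fit that left out 1 library.

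In absolute terms the largest changes were in abundant sarcomere and energy genes. Among called genes the largest losses were in the fast troponin *Tnnt3* (15637 ± 999.7 FPKM in Ex and 19775 ± 760.1 FPKM in controls), *Ckm*, the creatine kinase of muscle (16682 ± 1261 FPKM in Ex and 20034 ± 1033 FPKM in controls), *Pvalb*, and the fast troponin *Tnnc2* (11949 ± 787 FPKM in Ex and 14785 ± 889 FPKM in controls). The largest gains were in *Mb* (3888 ± 546 FPKM in Ex and 1820.5 ± 286 FPKM in controls), *Myh2*, the IIa myosin (1076 ± 159 FPKM in Ex and 294 ± 38.0 FPKM in controls), *Myh1*, the IIx myosin (1353 ± 199 FPKM in Ex and 714 ± 82.8 FPKM in controls), and *Fhl1* (846 ± 208 FPKM in Ex and 229 ± 23.9 FPKM in controls). Of 13 fast filament genes 7 were lower and 1, *Myh1*, higher, and of 13 slow and cardiac-type filament genes, a list that also holds the IIa gene *Myh2*, 7 were higher and none lower, *Myh2* among them. With 1 library left out at a time, the call of *Ckm* was lost without Ex 1, Ex 2, Ex 3, Ex 4, control 1, control 3, control 4 or control 5 (adjusted p between 0.0509 and 0.0986). The calls of *Tnnt3* and *Pvalb* stood in every fit that left out 1 library, and the call of *Tnnc2* was lost without control 1 or control 4 (adjusted p between 0.0509 and 0.0527).

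**Figure D5:**
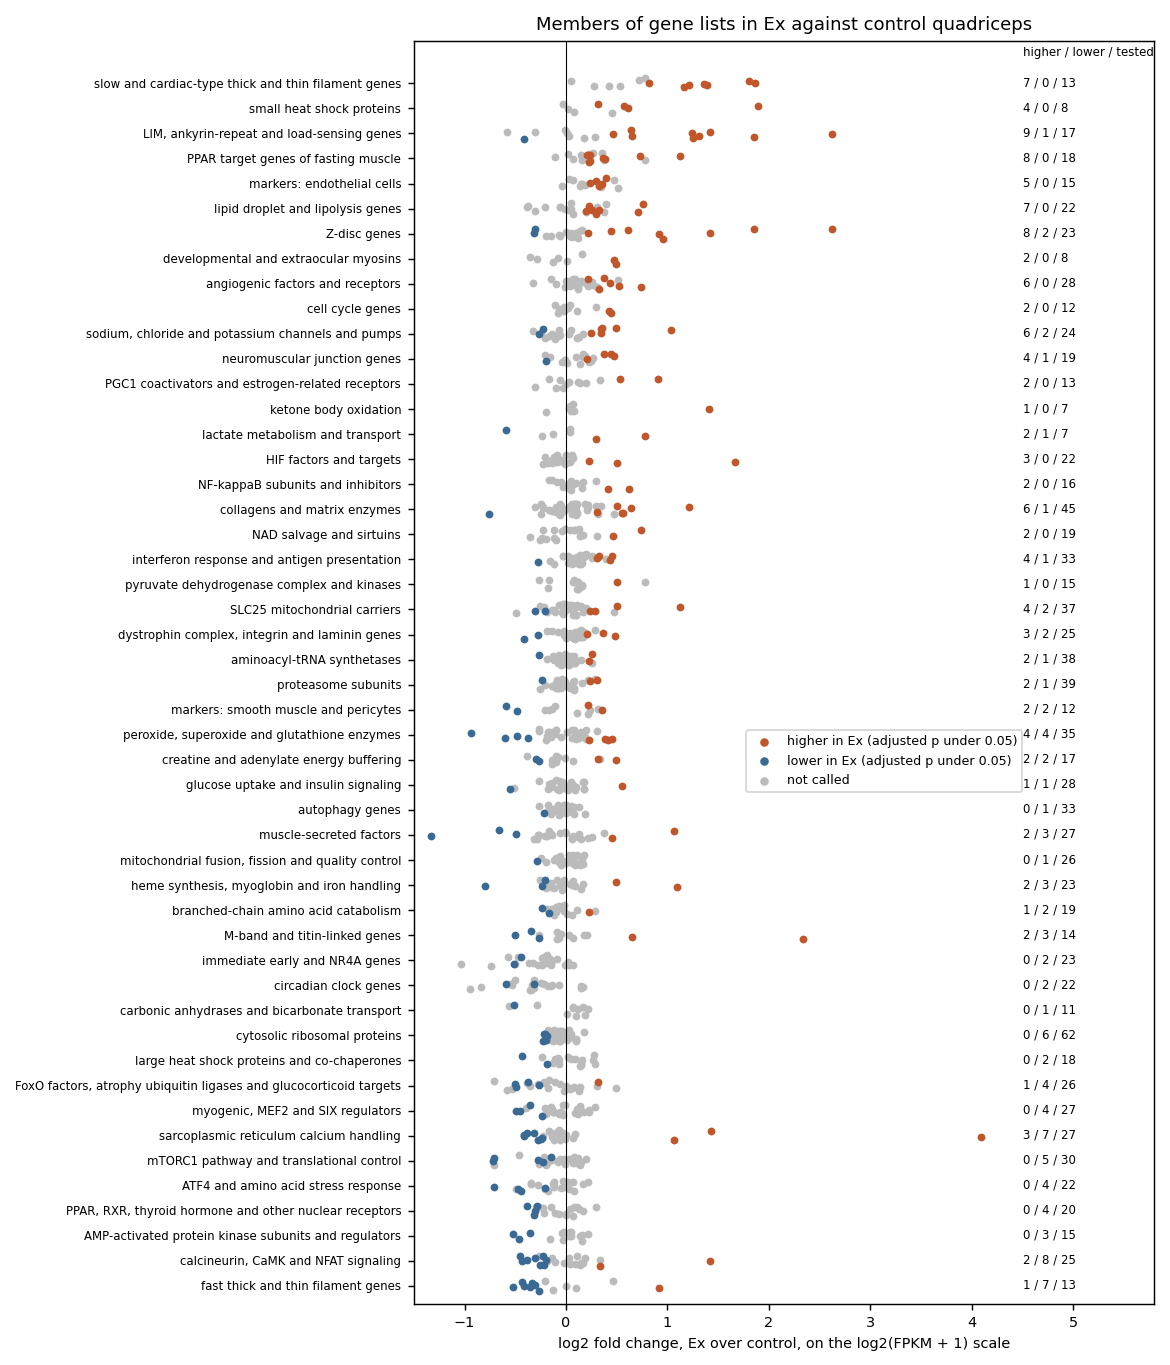
Log2 fold change, Ex over control (horizontal axis), of every tested member (points) of gene lists with at least 1 call (rows). Of the cell type marker lists only those of endothelial cells and of smooth muscle and pericytes are drawn. Rows are ordered by the share of members called higher minus lower. Orange points were higher in Ex, blue points lower, grey points not called, and the numbers at the right give members higher, lower and tested. Slow filament, small heat shock, load-sensing and PPAR target lists lie at the top, and fast filament, calcineurin and AMP-activated protein kinase lists at the bottom.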

How the data were processed

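RNA of quadriceps was sequenced in 5 Ex and 5 control libraries. Per the labels and the submitters' processing notes, the authors used STAR for alignment, to mm10, and DESeq2 1.1.0 for their gene tests. How reads that match several genes were counted is not stated there. The values used are FPKM as deposited by the authors, for 12529 genes, of which 21 had symbols turned into dates by a spreadsheet. The authors' deposited tables of changed genes hold their fold changes and p-values and were not used.

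All 12529 genes gave whole reads in every library from the steps of their FPKM (tolerance 0.01), with 14098168 to 16917490 reads per library. The 11663 genes whose mean over the 10 libraries reached 0.5 FPKM were tested on log2(FPKM + 1) with limma 3.58.1 in R 4.3.3 (mean-variance trend, two-sided, Benjamini-Hochberg over all 11663 genes, threshold 0.05). Isoform shares were compared with exact two-sided permutation tests. Groups and replicate numbers came from the labels. Named genes were the 20 largest increases and decreases without overlap between groups, up to 6 called genes with the smallest p in each list, and a fixed set of regulators and isoform pairs. A few genes that the rule takes are not reported here. The members and the 60 lists were chosen with earlier results of these data known. Alternatives were TPM rescaling, median-of-ratios scaling, other pseudocounts and filters, limma voom on recovered reads, all 15 libraries, a replicate block, and each library left out.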

Additional observations from a re-analysis of the deposited data

Results flagged for a closer look

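In 23 groups of 5 libraries for single genes and in 2 for isoform shares, 1 library stood apart from the other 4, the gap to its nearest neighbor taking more than 0.71 of the range of the group (Dixon). That is 25 of 466 groups examined (5.36%), and chance alone gives about 1 in 20. Among Ex libraries, Ex 5 stood apart in *Tigar* (45.4 FPKM), *Tspan8* (42.1 FPKM), *Bnip3l* (15.5 FPKM), *Myod1* (10.9 FPKM) and the pericyte gene *Cspg4* (3.87 FPKM), all high, and in the matrix gene *Hspg2* (26.7 FPKM), low. Ex 1 was apart in *Atp1b2* (111 FPKM) and *Pdk4* (115 FPKM), both low, and in *Esrrb* (3.82 FPKM) and *Slc25a13* (0.936 FPKM), both high. Ex 4 was apart in *Myh3* (1.72 FPKM), *Myh10* (8.45 FPKM) and *Pccb* (39.3 FPKM), and Ex 2 in *Rxrg* (24.3 FPKM).

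Among controls, control 2 was apart in the slow-type genes *Myoz2* (35.3 FPKM) and *Myl3* (92.9 FPKM), in the *Myoz2* share of the calsarcin pair (1.74%) and in the fast-fiber gene *Mybpc2* (1612 FPKM). Control 5 was apart in *Mb* (2324 FPKM), *Ckmt2* (1426 FPKM), *Bag3* (80.3 FPKM) and *Actn3* (3126 FPKM), and in the *Ldhb* share of lactate dehydrogenase (6.06%). Control 1 was apart in *Camk2d* (7.57 FPKM) and control 3 in *Rpl17* (137.6 FPKM). The part of single libraries in the comparisons is given as the range with each left out.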

How the results depend on the processing

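The balance of higher and lower calls depended most on scaling. With TPM, 1221 genes were higher and 208 lower, against 630 and 586 as deposited, and among 221 named genes 36 lost and 2 gained a call. Median-of-ratios scaling gave 656 higher and 553 lower, limma voom on recovered reads 648 and 567, a pseudocount of 0.1 gave 624 and 584, no filter on low values 659 and 583, a mean of at least 2 FPKM 558 and 636, and a fit with all 15 libraries 509 and 404. Leaving out 1 library gave 759 to 1439 called genes, with 420 to 699 higher and 326 to 777 lower. The highest count came without Ex 5 and the lowest without control 4. No gene or share given with a call changed direction in these fits, but the median over all genes was -0.0058 as deposited and 0.069 after TPM, and 16 of 60 list medians turned positive after TPM. In 45 of 60 lists a count moved by more than 1.5 times when 1 library was left out, and in 31 of these only counts under 3 moved.

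The replicate numbers did not pair the samples: same-numbered libraries deviated together with correlations of 0.19, 0.078, 0.066, -0.081 and 0.10. A fit with the number as a block called 1040 genes, 559 higher and 481 lower. With 5 pairs the smallest permutation p for a share is 0.0625, so that test cannot pass.

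Limits were the 5 libraries per group, a balance of calls that depended on the scale, whole muscle as the source, and read counts that leave genes near 0.5 FPKM imprecise. The TPM scale rests on the summed FPKM, of which the 10 most abundant genes held 28.5% to 33.6%. Median-of-ratios factors of the deposited FPKM lay between 0.9964 in Ex 1 and 1.008 in control 5.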

Other observations

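Energy buffering, immune and minor cell type lists are given here with their calls, beside 10.4% called over all genes. The called share was 42.9% of 7 lactate genes, 23.5% of creatine and adenylate genes, 15.2% of interferon genes and 0% of polyamine genes. Of 17 creatine and adenylate genes 2 were higher and 2 lower. *Ckmt2*, the mitochondrial creatine kinase of striated muscle, averaged 1491 ± 88.8 FPKM in Ex and 1074 ± 203 FPKM in controls (log2 fold change 0.49 ± 0.10, adjusted p = 0.0121), whereas cytosolic *Ckm* was lower, as described. *Ampd3* (log2 fold change 0.31 ± 0.06, adjusted p = 0.00719), an AMP deaminase, was higher and *Adssl1* (log2 fold change -0.30 ± 0.07, adjusted p = 0.0154), which takes part in remaking AMP in muscle, was lower. The lower count was 1 without Ex 2, Ex 3, Ex 4, control 1, control 3 or control 4. Of 7 lactate genes 2 were higher, *Ldhb* and *Ldhd* (log2 fold change 0.30 ± 0.08, adjusted p = 0.0364), and 1 lower, and the call of *Ldhd* was lost without Ex 1, Ex 2, Ex 3, Ex 4, control 1, control 2, control 3 or control 4 (adjusted p between 0.0527 and 0.0876). Of 15 pyruvate dehydrogenase genes 1, *Pdk1*, was higher (7 after TPM, 2 to 3 without Ex 1 or control 5, and 1 lower without Ex 5 or control 5). Of 7 ketone oxidation genes *Bdh1* alone was called. Of 13 PGC1 and estrogen-related receptor genes 2 were higher (5 after TPM), *Esrrg* and its relative *Esrrb* (log2 fold change 0.53 ± 0.10, adjusted p = 0.00719). Of 19 genes of branched-chain amino acid breakdown 1 was higher and 2 lower (2 and 1 after TPM), among them *Bckdk*, the kinase that inactivates the rate-setting complex (log2 fold change -0.24 ± 0.05, adjusted p = 0.0107), and the counts were 0 without control 3 for the higher and 1 without Ex 2, Ex 3, Ex 4, control 1, control 2, control 3 or control 4 for the lower. Of 23 heme, myoglobin and iron genes 2 were higher and 3 lower (4 and 1 after TPM), each count being 1 without Ex 1, Ex 2, Ex 4, control 3 or control 4. Of 19 NAD and sirtuin genes 2 were higher, *Nnt* and *Sirt5* (1 lower without Ex 5 or control 5). Of 11 carbonic anhydrase genes 1 was lower, *Car11* (log2 fold change -0.51 ± 0.12, adjusted p = 0.0205), and the count was 0 to 2 without Ex 1, Ex 5, control 3 or control 5.

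Of 33 interferon and antigen presentation genes 4 were higher and 1 lower (9 and 0 after TPM), among them *Tap2*, a peptide transporter for antigen display (8.49 ± 0.405 FPKM in Ex and 6.06 ± 0.648 FPKM in controls, log2 fold change 0.43 ± 0.07, adjusted p = 0.00234). The higher count was 1 to 2 without Ex 1, Ex 2, Ex 4, control 2, control 3 or control 4, and the lower call, *Cd74*, had an adjusted p = 0.0497 from limma, and the call of *Cd74* was lost without Ex 1, Ex 2, Ex 3, Ex 4, control 2, control 3, control 4 or control 5 (adjusted p between 0.0632 and 0.104). Of 16 NF-kappaB genes 2 were higher, *Nfkb2* and *Relb* (log2 fold change 0.42 ± 0.11, adjusted p = 0.0310), and the call of *Relb* was lost without Ex 1, Ex 2, Ex 3, Ex 4, Ex 5, control 2, control 3 or control 4 (adjusted p between 0.0502 and 0.0761). Of 12 cell cycle genes 2 were higher, *Rrm2*, which reached the minimum of 0.5 FPKM through Ex alone (0.912 ± 0.145 FPKM in Ex and 0.423 ± 0.114 FPKM in controls, log2 fold change 0.43 ± 0.07, adjusted p = 0.00457), and *Mcm6* (log2 fold change 0.44 ± 0.12, adjusted p = 0.0326), and the call of *Mcm6* was lost without Ex 1, Ex 4, control 1, control 2, control 3 or control 4 (adjusted p between 0.0573 and 0.0726). Of 38 aminoacyl-tRNA synthetases 2 were higher, among them the mitochondrial *Fars2* (0.22 ± 0.05 log2), and cytosolic *Yars* (-0.26 ± 0.06 log2; adjusted p = 0.0624 after TPM) lower, with 2 lower without Ex 1. Limma called none of 11 polyamine genes (1 had an unadjusted p under 0.05, and limma voom called 0). Of 11 satellite cell markers 1 was lower, *Fgfr4* (log2 fold change -0.24 ± 0.06, adjusted p = 0.0294; adjusted p = 0.0688 after TPM), and the call of *Fgfr4* was lost without Ex 1, Ex 2, Ex 4, control 3, control 4 or control 5 (adjusted p between 0.0515 and 0.0723). Of 10 adipocyte markers *Lpl*, a lipase that muscle also makes, was higher (log2 fold change 0.39 ± 0.07, adjusted p = 0.00488) and *Lep*, which reached the minimum through the controls alone, lower (log2 fold change -0.48 ± 0.12, adjusted p = 0.0248), the lower count being 0 to 2 without Ex 1, Ex 3, Ex 4, Ex 5, control 2, control 4 or control 5. Of 10 Schwann cell markers 1 was lower, *Mal* (log2 fold change -0.24 ± 0.06, adjusted p = 0.0279; adjusted p = 0.0774 after TPM), and the call of *Mal* was lost without Ex 1, Ex 2, Ex 3, Ex 4, control 1 or control 3 (adjusted p between 0.0526 and 0.0633), and 2 were lower without Ex 5. The markers of lymphocytes and neutrophils and of erythroid cells had 1 tested gene each, and neither was called.

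Some further patterns were noticed after the values were seen and are given as values only. The ankyrin repeat and SOCS box genes, whose products bring targets to cullin ubiquitin ligases, had 16 tested members named Asb with a number. Of these 8 were lower and 1 higher in Ex (7 and 1 after TPM), with 7 or 8 lower in each fit that left out 1 library. Over all genes 5.02% were lower and 5.4% higher. Other families looked at in the same way did not share this, with 0 called of 26 named Fbxo, 3 higher and 0 lower of 30 named Klhl, and 3 higher and 2 lower of 29 named Trim. Of all 101 genes with these 4 names 7 were higher and 10 lower (median -0.0009). *Asb2* averaged 206 ± 12.01 FPKM in Ex and 296 ± 34.1 FPKM in controls (log2 fold change -0.51 ± 0.08, adjusted p = 0.00182) and *Asb14* 56.7 ± 7.81 FPKM in Ex and 79.2 ± 4.02 FPKM in controls (log2 fold change -0.49 ± 0.08, adjusted p = 0.00371), both without overlap. *Asb18* was the higher member (log2 fold change 0.34 ± 0.08, adjusted p = 0.0157). Of 20 dual specificity phosphatase genes named Dusp with a number, 6 were lower and 2 higher (5 and 2 after TPM), with 4 to 8 lower and 1 or 2 higher in the fits that left out 1 library. *H19*, an imprinted noncoding RNA, measured 439, 378, 324, 470.5 and 371 FPKM in Ex replicates 1 to 5, against 155, 156, 179, 191 and 205 FPKM in controls 1 to 5 (log2 fold change 1.15 ± 0.11, adjusted p = 7.04e-05), with every Ex library above every control. *Homer2*, a scaffold that binds calcium channels, averaged 5.48 ± 0.518 FPKM in Ex and 2.89 ± 0.407 FPKM in controls (log2 fold change 0.74 ± 0.08, adjusted p = 2.86e-04), also without overlap. *Fbp2*, the fructose bisphosphatase of muscle, averaged 19.2 ± 4.84 FPKM in Ex and 31.2 ± 6.60 FPKM in controls (log2 fold change -0.68 ± 0.17, adjusted p = 0.0247), with overlap, and the call of *Fbp2* was lost without Ex 3, Ex 4, control 3 or control 4 (adjusted p between 0.0555 and 0.0627).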
